A study of Rattus norvegicus with 8 samples.

Results

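Fc gamma receptors bind the constant end of IgG antibodies on the surface of microglia, macrophages and other white blood cells. Most activating Fc receptors have no signalling motif of their own and pass the signal through a small adaptor, *Fcer1g*. This adaptor carries an immunoreceptor tyrosine-based activation motif (ITAM), as does *Tyrobp*, the adaptor of *Trem2* and of several other activating receptors. Src family kinases phosphorylate the ITAM, the kinase Syk docks on it and switches on phospholipase C gamma, and inhibitory receptors such as *Fcgr2b* recruit phosphatases that stop the signal. In the brain this machinery belongs mainly to microglia and to macrophages of the borders, where it serves the uptake of antibody-coated particles and debris.

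The 10 genes described here were the receptors *Fcgr1a*, *Fcgr3a*, *Fcgr2b* and *Trem2*, the adaptors *Fcer1g* and *Tyrobp*, the enzymes *Syk* and *Plcg2*, and the phosphatases *Ptpn6* and *Ptprc*, out of 15153 genes with a named probe. They were chosen from the ratio of RA over vehicle on these same arrays, so their ratios are a description without a test and support nothing by themselves. All 10 had a probe.

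RA, retinoic acid, is the vitamin A derivative that acts through nuclear receptors, and the question was which hypothalamic genes differ after it is given. Male F344 rats (F344N in the labels) held in short days received 5 μl of all-trans RA or of vehicle into the third ventricle, and hypothalamic blocks that contained the arcuate nuclei were collected 24 hrs later from 4 rats per group. The labels give RA at 1e-05 M and saline as vehicle, whereas the methods give 1e-04 M and DMSO in saline, and the ages of the rats were not used here. RA and vehicle RNA were hybridised together on 8 two-colour arrays, with RA in the Cy5 channel of arrays 1, 3, 6 and 8 and in the Cy3 channel of arrays 2, 4, 5 and 7. Arrays 1 to 4 formed the first row of 1 slide and arrays 5 to 8 the second, each row with both dye orders. The arrays include dye-swap repeats, in which the RNA of 4 rats per group was hybridised again with the dyes exchanged, so 8 arrays are not 8 independent samples, and each SD over 8 arrays and each count of arrays below mixes rats with technical repeats. Which arrays carry RNA of the same rats is not named, so a p-value here measures a spread that may be technical in part, and slide row and rats cannot be told apart.

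Of the 30367 probes, 57.4% to 74.6% exceeded background clearly in the RA channel of an array and 61.2% to 74.5% in the vehicle channel. All 11 measured microglial markers and all 11 measured hypothalamic neuropeptides had signal well above background on every array in at least 1 channel. Over all named genes the median log2 ratio was -0.0047, and the SD of the ratios was 0.18 to 0.20 on the arrays of the first slide row and 0.29 to 0.33 on those of the second. In limma, 988 probes (3.25%) had an unadjusted p under 0.01, the threshold of the study's methods, and are termed called in what follows, with 792 higher (2.61%) and 196 lower (0.645%). Of the named genes 4.32% were called in either direction. None passed an adjusted p of 0.05 (0 in limma, lowest adjusted p 0.222), while 3292 (10.8%) had an unadjusted p under 0.05. With arrays as random blocks 492 probes passed the adjusted threshold, and with the arrays taken as independent 935 did.

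The stretch of 250 bases before the start of transcription was in the RefSeq table (GRCr8) for *Fcgr3a*, *Trem2*, *Syk*, *Plcg2*, *Ptpn6* and *Ptprc*. *Fcgr1a*, *Fcgr2b*, *Fcer1g* and *Tyrobp* had no entry. A set of 4 is shown: *Fcgr3a* as the gene with the highest mean ratio, *Trem2* as the gene with a mean below 0, and the phosphatases *Ptprc* and *Ptpn6*, which had similar ratios and differ in the searched letters. They lie at chr13:85782386-85782635 on the plus strand (*Fcgr3a*), and on the minus strand at chr9:20151780-20152029 (*Trem2*), chr13:52259747-52259996 (*Ptprc*) and chr4:159237070-159237319 (*Ptpn6*). Capitals mark GAGGAA, the core bound by the myeloid factor PU.1, AGGTCA, the half-site of retinoid receptors, and the repeat bound by interferon regulatory factors (2 copies of GAAA with 2 bases between them), on either strand, and no capitals overlap.
Fcgr3a: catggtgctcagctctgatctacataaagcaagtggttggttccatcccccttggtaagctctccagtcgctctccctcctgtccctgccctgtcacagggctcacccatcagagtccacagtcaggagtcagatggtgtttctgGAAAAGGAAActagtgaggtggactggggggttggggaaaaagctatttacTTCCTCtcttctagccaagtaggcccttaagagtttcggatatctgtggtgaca
Trem2: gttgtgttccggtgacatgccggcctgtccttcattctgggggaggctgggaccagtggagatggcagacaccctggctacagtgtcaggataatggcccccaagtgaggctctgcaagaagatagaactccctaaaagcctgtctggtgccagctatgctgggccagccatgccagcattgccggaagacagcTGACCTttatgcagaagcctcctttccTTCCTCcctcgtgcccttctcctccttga
Ptprc: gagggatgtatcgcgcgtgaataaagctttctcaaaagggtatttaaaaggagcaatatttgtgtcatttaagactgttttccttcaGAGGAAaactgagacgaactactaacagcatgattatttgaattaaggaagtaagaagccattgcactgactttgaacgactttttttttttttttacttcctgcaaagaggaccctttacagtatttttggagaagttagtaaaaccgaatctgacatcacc
Ptpn6: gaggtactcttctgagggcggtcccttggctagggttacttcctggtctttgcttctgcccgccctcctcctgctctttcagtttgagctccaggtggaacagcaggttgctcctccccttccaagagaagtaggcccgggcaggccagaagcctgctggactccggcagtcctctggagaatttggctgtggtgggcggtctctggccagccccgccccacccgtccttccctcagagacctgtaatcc
GAGGAA was present in 5 of the 6 stretches and in 23.3% of 33465 promoters of the same length. *Ptpn6* was the one without these exact letters, and other forms of the PU.1 site were not searched. AGGTCA was present only in that of *Trem2* among the 6, at 56 bases before the start on the minus strand, and in 14.1% of all promoters. The repeat of interferon regulatory factors was present only in that of *Fcgr3a* among the 6, at 105 bases before the start, and in 3.41% of all. TTCNNNGAA, the palindrome of STAT factors, was in 0 of the 6 and in 7.67% of all. These are matches of letters in a short window and say nothing of whether a factor is bound.

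*Fcgr3a*, *Fcgr2b*, *Fcgr1a*, *Tyrobp*, *Ptprc*, *Ptpn6*, *Fcer1g* and *Plcg2* had a log2 ratio of RA over vehicle above 0 on all 8 arrays. That is 8 of the 10 genes, and 4.07% of named genes did so, while 1.8% were below 0 on all 8, from which nothing is read because the ratios chose the genes. *Syk* was above 0 on 7 arrays and *Trem2* on 3. The median of the 10 mean log2 ratios was 1.02. In tissue RNA, more cells of a type and more RNA per cell cannot be told apart.

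**Figure D1:**
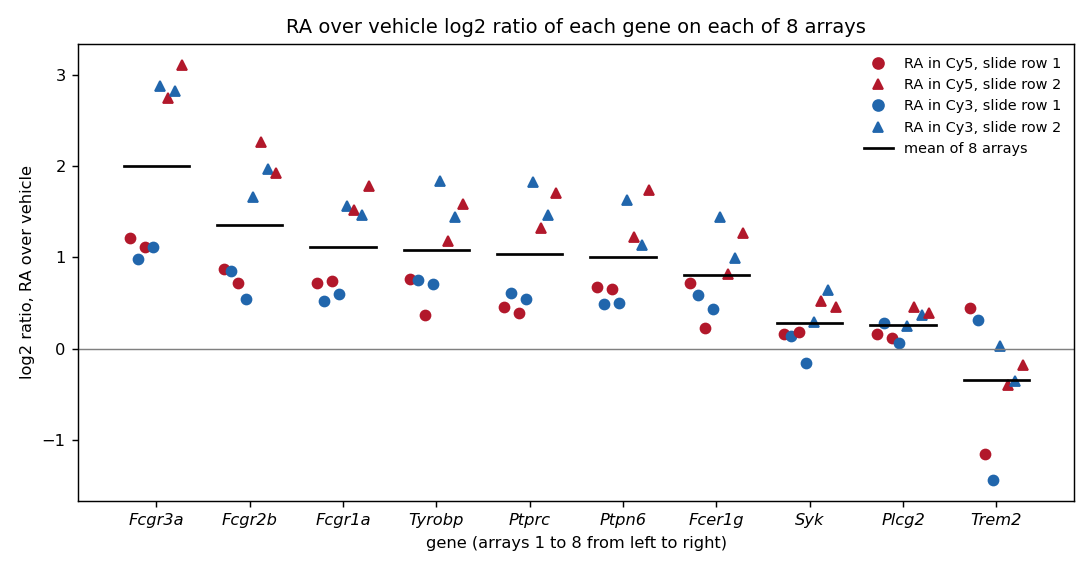
The log2 ratio of RA over vehicle (vertical axis) of the 10 genes, ordered by their mean, on each of the 8 arrays. Red points have RA in Cy5 and blue points RA in Cy3, circles lie in slide row 1 and triangles in slide row 2, and the black line is the mean. For *Fcgr3a* the circles lie at 0.98 to 1.22 and the triangles at 2.75 to 3.11, while for *Trem2* the points fall on both sides of 0.

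*Fcgr3a*, an activating receptor for IgG, had the highest ratio of the 10 genes on all 8 arrays. Its log2 ratio on arrays 1 to 8 was 1.22, 0.98, 1.12, 1.12, 2.89, 2.75, 2.82 and 3.11. The arrays of the second slide row were all higher than those of the first, and the dye orders overlapped. The mean was 2.00 ± 0.96 (SD, n = 8 arrays), a 4.00-fold ratio, with 2.16-fold in the first row and 7.43-fold in the second. Its normalised log2 intensity was 7.44 to 8.36 in vehicle and 8.42 to 11.11 in RA, so that the lowest RA level lay just above the highest vehicle level and the groups did not overlap. The share of all named genes without such an overlap was not counted. Nothing is therefore read from overlap or its absence, here or for the genes below.

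*Fcgr2b*, the inhibitory receptor of the family, which carries its own inhibitory motif, followed with log2 ratios of 0.87, 0.85, 0.72, 0.55, 1.67, 2.26, 1.97 and 1.93 on arrays 1 to 8. Again the second slide row lay above the first throughout. The mean was 1.35 ± 0.67 (SD, n = 8 arrays), or 2.55-fold. Its log2 intensity was 8.30 to 9.10 in vehicle and 9.12 to 11.27 in RA, without overlap, although the gap between them was small. *Fcgr3a* exceeded *Fcgr2b* on 8 of 8 arrays, by 0.65 ± 0.40 (SD) on the log2 scale.

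*Fcgr1a*, the receptor of high affinity that binds single IgG molecules, had log2 ratios of 0.72, 0.52, 0.74, 0.60, 1.57, 1.52, 1.46 and 1.78. All 4 arrays of the second row were again above all 4 of the first. The mean was 1.11 ± 0.51 (SD, n = 8 arrays), or 2.16-fold. Its vehicle levels of 9.21 to 10.03 overlapped with its RA levels of 9.80 to 11.55. Vehicle on arrays 6 and 7 reached 10.03, and RA on arrays 1, 2 and 4 stayed below that.

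*Fcgr2b*, *Fcgr3a* and *Fcgr2a* follow each other on the chromosome and are related in sequence, so signal of one transcript on the probe of another cannot be told apart. *Fcgr2a*, another activating receptor and not one of the 10 genes, had a log2 fold change of 0.25 ± 0.06 (SE, limma, adjusted p = 0.268), was called higher and was above 0 on 7 of 8 arrays. *Fcrla*, an Fc receptor-like gene just before *Fcgr2b*, had 0.19 ± 0.06 (SE) and was above 0 on 8 arrays without being called. *Fcgrt*, the neonatal Fc receptor that recycles IgG and uses no ITAM, had 0.01 ± 0.08 (SE).

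*Trem2*, the lipid-sensing receptor of microglia that signals through *Tyrobp*, did not follow the others. Its log2 ratio on arrays 1 to 8 was 0.45, 0.32, -1.16, -1.44, 0.03, -0.40, -0.35 and -0.18. Arrays 1 and 2 were above 0, arrays 3 and 4 far below, and those of the second row near or below 0, with a mean of -0.34 ± 0.67 (SD, n = 8 arrays). It had the lowest ratio of the 10 genes on 6 of 8 arrays.

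The levels behind these ratios of *Trem2* were uneven. Vehicle stood at 11.03, 11.05, 11.05 and 11.18 on arrays 1 to 4, whereas RA stood at 11.48 and 11.36 on arrays 1 and 2 and at 9.89 and 9.73 on arrays 3 and 4. On array 5 both channels were dim, at 8.22 in RA and 8.19 in vehicle, although both were well above background. A single spot per array measured *Trem2*, so the spot and the RNA cannot be told apart there. Without arrays 3 and 4 the mean ratio was -0.02, and without arrays 1 and 2 it was -0.58.

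**Figure D2:**
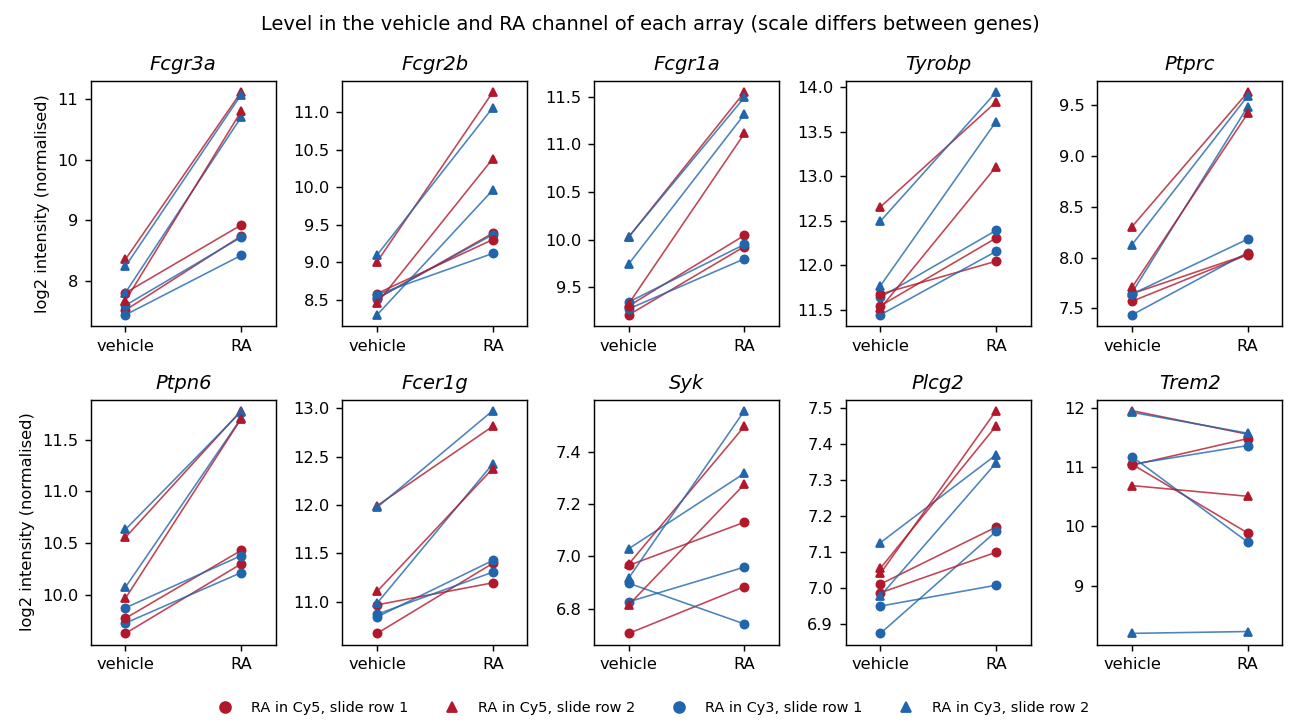
Normalised log2 intensity (vertical axes, a scale of its own for each gene) in the vehicle and the RA channel, with a line for each of the 8 arrays, coloured by dye order and shaped by slide row. Lines of *Fcgr3a* and *Fcgr2b* all climb from vehicle levels that lie below every RA level, and those of *Trem2* run in both directions, with array 5 at 8.19 and 8.22.

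*Tyrobp* (DAP12), the adaptor of *Trem2* and of several other activating receptors, had log2 ratios of 0.76, 0.75, 0.37, 0.71, 1.84, 1.18, 1.45 and 1.59 on arrays 1 to 8. Array 3 was lowest and array 5 highest. The mean was 1.08 ± 0.51 (SD, n = 8 arrays), or 2.11-fold, against the mean of -0.34 for its partner *Trem2*. Its log2 intensity was 11.44 to 12.65 in vehicle and 12.05 to 13.94 in RA, and the groups overlapped because vehicle on arrays 6 and 7 (12.65 and 12.50) exceeded RA on the first row.

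*Fcer1g*, the common gamma chain through which *Fcgr1a* and *Fcgr3a* signal, had log2 ratios of 0.72, 0.58, 0.23, 0.44, 1.44, 0.82, 1.00 and 1.27. Arrays 3 and 5 were again the extremes, as for *Tyrobp*. The mean was 0.81 ± 0.41 (SD, n = 8 arrays), or 1.76-fold, and vehicle levels of 10.68 to 11.99 overlapped with RA levels of 11.20 to 12.97.

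*Syk*, the kinase that docks on the phosphorylated ITAM, had small log2 ratios of 0.16, 0.13, 0.18, -0.16, 0.29, 0.53, 0.64 and 0.46. Array 4 was the only one below 0, and the second row lay above the first. The mean was 0.28 ± 0.26 (SD, n = 8 arrays), or 1.21-fold, with overlapping levels of 6.71 to 7.03 in vehicle and 6.74 to 7.56 in RA. *Fcer1g* exceeded *Syk* on 8 of 8 arrays, by 0.53 ± 0.34 (SD). With plain subtraction of background the 2 means were closer, at 0.83 for *Fcer1g* and 0.57 for *Syk*.

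*Plcg2*, the phospholipase that *Syk* activates in myeloid and B cells, had log2 ratios of 0.16, 0.28, 0.11, 0.06, 0.24, 0.45, 0.37 and 0.40. The slide rows overlapped, in contrast to most of the other genes. The mean was 0.26 ± 0.14 (SD, n = 8 arrays), or 1.20-fold, with vehicle at 6.87 to 7.13 and RA at 7.01 to 7.49. Both enzymes lay near the lower end of the signal, and with plain subtraction of background their means were 0.57 (*Syk*) and 0.52 (*Plcg2*).

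*Ptpn6* (SHP-1), the phosphatase recruited by inhibitory receptors, had log2 ratios of 0.67, 0.49, 0.66, 0.51, 1.63, 1.23, 1.14 and 1.74 on arrays 1 to 8. The second slide row lay above the first, with arrays 5 and 8 highest. The mean was 1.01 ± 0.50 (SD, n = 8 arrays), or 2.01-fold, and vehicle levels of 9.62 to 10.63 overlapped with RA levels of 10.21 to 11.78.

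*Ptprc* (CD45), the surface phosphatase of all nucleated blood cells, which removes the inhibitory phosphate of Src family kinases, had log2 ratios of 0.46, 0.61, 0.39, 0.54, 1.83, 1.32, 1.46 and 1.71. Here too arrays 5 and 8 were highest. The mean was 1.04 ± 0.60 (SD, n = 8 arrays), or 2.05-fold, with vehicle at 7.44 to 8.30 and RA at 8.03 to 9.63.

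In the order of mean ratios, *Fcgr1a*, *Tyrobp*, *Ptprc* and *Ptpn6* were not separated by the spread over arrays. *Fcgr1a* exceeded *Tyrobp* on 4 of 8 arrays with a mean difference of 0.03 ± 0.25 (SD) on the log2 scale. *Tyrobp* exceeded *Ptprc* on 4 by 0.04 ± 0.15, and *Ptprc* exceeded *Ptpn6* on 5 by 0.03 ± 0.20. *Syk* and *Plcg2* were likewise close, with a mean difference of 0.02 ± 0.15. The steps from *Fcgr2b* to *Fcgr1a* (0.24 ± 0.27) and from *Ptpn6* to *Fcer1g* (0.20 ± 0.22) were each in the same direction on 6 of 8 arrays, and so was that from *Plcg2* to *Trem2* (0.60 ± 0.62). This order holds for the brightest probes only. With the mean over all probes of a gene, *Fcgr2b* had 0.98, below *Tyrobp* (1.08) and *Ptpn6* (1.01).

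Some of the genes had more than 1 probe, and the brightest is given above. The other probe of *Fcer1g* gave 0.96 ± 0.50 (SD, n = 8 arrays) and that of *Fcgr1a* 0.81 ± 0.44, both above 0 on all 8 arrays. The other probe of *Fcgr2b* gave 0.61 ± 0.54 and was above 0 on 7 arrays, which is under the 1.35 of the brightest probe, and the other probe of *Ptprc* gave 0.61 ± 0.40 against 1.04. That probe of *Ptprc* was well above background on 7 arrays in RA and only 4 in vehicle. For *Syk* the other probes gave 0.15 ± 0.19, from a probe that was not well above background on any array, and 0.09 ± 0.18. The direction of the mean was the same for all probes of a gene, whereas its size depended on the probe, most of all for *Fcgr2b*.

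**Figure D3:**
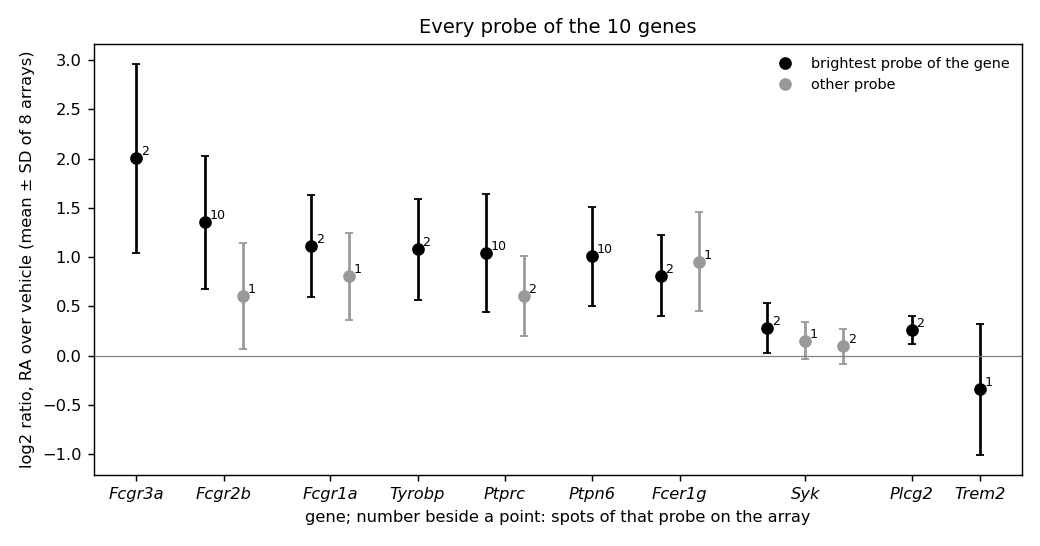
Mean log2 ratio of RA over vehicle (vertical axis) of all 16 probes of the 10 genes, with bars of 1 SD over 8 arrays. Black points are the brightest probe of each gene and grey points the other probes, and the number beside a point counts the spots of that probe on an array. Grey points lie below the black point for *Fcgr2b*, *Fcgr1a*, *Ptprc* and *Syk* and above it for *Fcer1g*.

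The ratios differed between the rows of the slide. For 8 of the 10 genes, all but *Plcg2* and *Trem2*, the 4 arrays of the second row all had higher ratios than the 4 of the first, which held for 5.3% of named genes. The median of the 10 genes was 0.69, 0.55, 0.38 and 0.52 on arrays 1 to 4 and 1.60, 1.20, 1.29 and 1.65 on arrays 5 to 8. Means were above 0 within each row for the 9 genes other than *Trem2*, from 0.08 (*Syk*) to 1.11 (*Fcgr3a*) in the first row and from 0.37 (*Plcg2*) to 2.89 (*Fcgr3a*) in the second. With RA in Cy5 and in Cy3 the means were 2.05 and 1.95 for *Fcgr3a*, 1.45 and 1.26 for *Fcgr2b*, and 0.97 and 1.19 for *Tyrobp*.

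Markers of several cell types also moved, and their part in these ratios was not tested. Of 9 monocyte and macrophage markers, all 9 had a mean log2 fold change above 0 and 4 were called higher (*Cd14* 1.43, *Cd68* 1.07, *Msr1* 0.53, *Lyve1* 0.34). Among all named genes 3.52% were called higher. Only 5 of the 9 were well above background on all 8 arrays in RA or in vehicle. *Ccr2* was so on 1 array in RA and 0 in vehicle, and *Mrc1* on 2 in each. The log2 of the summed intensity of the 9 was 10.51 to 11.05 in vehicle and 10.72 to 12.27 in RA. *Msr1* was well above background on 6 arrays in RA and 0 in vehicle. Of 9 neutrophil markers 2 were called higher (*S100a9* 1.25, *Csf3r* 0.42), the summed level was 9.65 to 9.97 in vehicle and 9.80 to 11.17 in RA, and *Elane*, *Ltf* and *Mmp8* were not well above background on any array. Of 10 T and NK cell markers 0 were called at an unadjusted p under 0.01 in limma and 5 had one under 0.05. Their summed level was 9.99 to 10.16 in vehicle and 9.99 to 10.77 in RA. Only 1 of the 10, *Cd3d*, was well above background on all 8 arrays, and *Klrd1* was so on none.

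Microglial markers divided. Of 11 measured, *Aif1* (0.88) and *Itgam* (0.87) were called higher and *Tmem119* (-0.52) was called lower, the median was -0.05, and the summed level was 14.15 to 14.58 in vehicle and 14.29 to 14.92 in RA. *P2ry12*, a purine receptor of resting microglia, had -0.15 ± 0.12 (SE) and *Cx3cr1*, the fractalkine receptor, 0.08 ± 0.06 (SE), neither of them called.

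Glial markers moved as well, and their part in the ratios was not tested. *Gfap*, the filament protein of astrocytes, was called higher at 1.40 ± 0.20 (SE), with 0.97 in the first slide row and 1.83 in the second, while the median of 7 astrocyte markers was -0.06 and *Gja1* was called lower at -0.22. *Vim*, a filament protein listed for ependyma and tanycytes, was called higher at 0.62 ± 0.17 (SE). It was the only 1 of the 7 measured genes of that list to be called. The median of the 7 was -0.04, and 3 of them had a mean above 0. All 8 oligodendrocyte markers had a mean below 0 (median -0.19), 5 of them with an unadjusted p under 0.05 in limma and 1, *Olig2*, called lower.

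Markers of choroid plexus and hypothalamic neuropeptides also differed between arrays of the second row, and their part in the ratios was not tested. The median log2 ratio of 9 choroid plexus markers was -1.35 and -1.27 on arrays 6 and 7 and 0.07 to 0.49 on the others. That of 11 hypothalamic neuropeptides was -0.59 and -0.64 on arrays 5 and 8 and -0.05 to 0.29 on the others. The median of 7 general neuronal markers stayed between -0.18 and 0.07 over all arrays. The vehicle levels of *Fcgr3a* (8.36 and 8.24), *Tyrobp* and *Fcer1g* were highest on arrays 6 and 7. With any 2 arrays left out, 1 of each dye order, the mean log2 ratio of *Fcgr3a* ran from 1.67 to 2.32 and that of *Tyrobp* from 0.87 to 1.26.

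**Figure D4:**
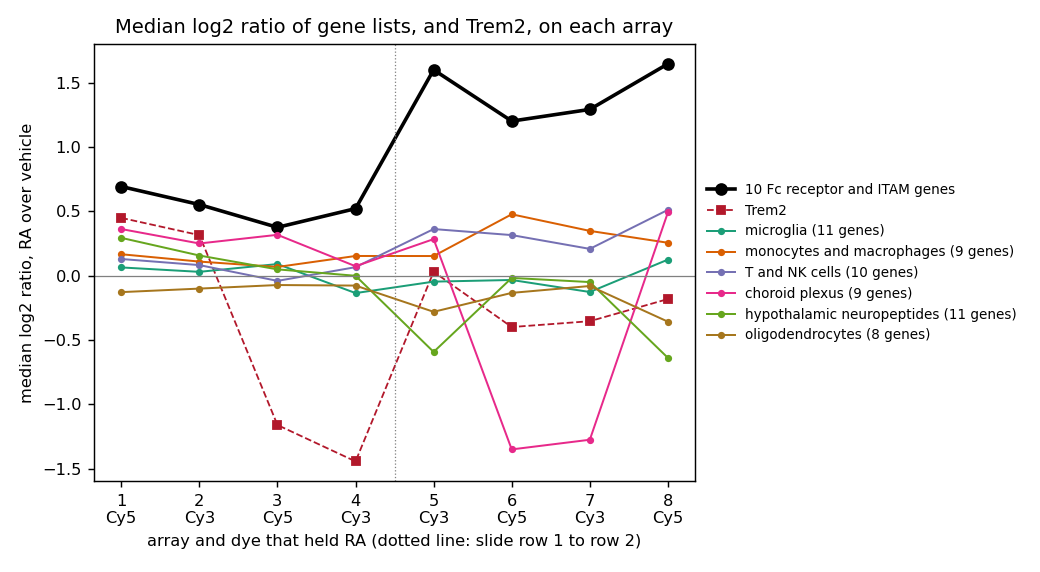
Median log2 ratio of RA over vehicle (vertical axis) of the 10 genes (black), of marker lists (coloured lines) and of *Trem2* alone (dashed) on arrays 1 to 8, with the dye that held RA under each array number. The black line lies at 0.38 to 0.69 on arrays 1 to 4 and at 1.20 to 1.65 on arrays 5 to 8, choroid plexus markers drop on arrays 6 and 7, and neuropeptides on arrays 5 and 8.

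Of the 10862 other named genes well above background on all arrays, those whose ratios were closest to the median profile of the 10 genes were *Pycard*, *Myo1g*, *Slamf9*, *Aif1* and *P2ry6*. The likeness is the root mean square difference of log2 ratios over 8 arrays, which was 0.13 for *Pycard*, the inflammasome adaptor, 0.17 each for *Myo1g*, a myosin of blood cells, *Slamf9*, a receptor of the SLAM family, and *Aif1*, the actin-binding protein Iba1, and 0.19 for *P2ry6*, a receptor for UDP that takes part in phagocytosis by microglia. Their mean log2 ratios were 0.98, 0.90, 0.85, 0.88 and 0.91. Among the 10 genes the closest pairs were *Syk* with *Plcg2* (0.14), *Tyrobp* with *Ptprc* (0.15) and *Fcgr1a* with *Ptpn6* (0.16), and the farthest was *Fcgr3a* with *Trem2* (2.54).

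Beyond the 10 genes, a list of 109 other genes of Fc receptor, ITAM and inhibitory receptor signalling was examined, of which 92 had a named probe. At an unadjusted p under 0.01 in limma, 21 were called higher (22.8%) and 0 lower, beside 3.52% higher and 0.792% lower among all named genes. Of the 92, 80 had a mean log2 fold change above 0 and the median was 0.13, against -0.0047 over all named genes. The list was chosen with earlier results of these data known, so these shares and medians are a description and support nothing by themselves. None passed an adjusted p of 0.05 in limma (lowest 0.222), 35 had an unadjusted p under 0.05, and 16 passed the adjusted threshold with arrays as random blocks and 21 with independent arrays. The 21 became 11 without arrays 5 and 8 and 12 without arrays 6 and 7, and arrays of the first slide row alone gave 12 and those of the second 41. The marker lists above moved on the same arrays, and their part in this count was not tested.

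Among the Src family kinases, which phosphorylate the ITAM, *Fgr*, a myeloid member, was called with a log2 fold change of 0.71 ± 0.17 (SE, as in all values after ± below, limma, adjusted p = 0.268), from 0.12 to 1.48 over arrays. The kinases that neurons and other cells also use had 0.08 ± 0.05 (*Fyn*) and 0.00034 ± 0.06 (*Src*), neither of them called. *Lyn*, another member given here although outside the rule for named genes, had 0.11 ± 0.07 and was not called. It was well above background on only 4 arrays in RA and 1 in vehicle. No split of the family by cell type is read from these values. Of the 5 other Syk and Tec family kinases 1 was called, *Btk*, the kinase of B and myeloid cells, at 0.31 ± 0.06, whereas *Tec* had 0.03 ± 0.05 and *Bmx* -0.06 ± 0.06. *Btk* was well above background on only 5 arrays in RA and 3 in vehicle.

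Among the inhibitory receptors, 3 of 13 were called higher. *Clec12a*, a C-type lectin of myeloid cells, had 1.07 ± 0.20 (limma, adjusted p = 0.227) and was above 0 on all arrays, *Lilrb4* had 0.86 ± 0.24 with 0.24 in the first slide row and 1.47 in the second, and *Clec4a* had 0.40 ± 0.11. *Lilrb4* was well above background on only 5 arrays in RA and 2 in vehicle. *Sirpa*, the receptor for the do-not-eat-me signal CD47, had 0.12 ± 0.05 and *Pecam1*, shared with endothelium, 0.0024 ± 0.06, neither of them called. Of 14 other activating receptors 1 was called, *Fcgr2a*, while *Oscar*, an adaptor-bound collagen receptor, had 0.14 ± 0.07 and *Klrk1*, the receptor NKG2D, 0.05 ± 0.05. Of 6 other adaptors *Hcst* (DAP10), the partner of *Klrk1*, was called at 0.75 ± 0.16, and the T cell chains *Cd3d* (0.27 ± 0.09) and *Cd3g* (0.70 ± 0.22) were not.

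The scaffold proteins, which join the kinases to their targets, had 6 of 15 genes called higher, the largest share of any role here. *Skap2* had 0.73 ± 0.15, *Lcp2* (SLP-76) 0.66 ± 0.14 and *Blnk* 0.53 ± 0.10, all above 0 on 8 of 8 arrays. *Grb2*, used in all cells, had 0.13 ± 0.06 and *Cblb* 0.02 ± 0.06.

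Of 16 effectors 5 were called higher. *Ncf4*, a cytosolic subunit of the phagocyte NADPH oxidase, had 1.17 ± 0.20 (limma, adjusted p = 0.222), *Rac2*, the GTPase of blood cells that switches the oxidase on, 1.09 ± 0.19, and *Cyba*, a membrane subunit, 1.06 ± 0.19. The other measured subunits, given here although outside the rule for named genes, were not called, with 0.27 ± 0.12 for *Cybb*, the catalytic subunit, above 0 on 5 of 8 arrays, and 0.65 ± 0.21 for *Ncf1*, above 0 on 6. *Cybb* was well above background on only 4 arrays in RA and 1 in vehicle. The kinases *Prkcd* (0.30 ± 0.26) and *Prkcb* (-0.0081 ± 0.06) were not called, and *Prkcd* ran from -0.34 to 1.48 over arrays.

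Other phosphatases and negative regulators had smaller fold changes than *Ptpn6* and *Ptprc*, and 2 of 10 were called. *Ptpn18* had 0.53 ± 0.09 (limma, adjusted p = 0.222) and *Inpp5d* (SHIP1), the lipid phosphatase that *Fcgr2b* recruits, 0.43 ± 0.12. *Csk*, which adds the inhibitory phosphate to Src kinases, had 0.18 ± 0.06 and *Ptprj* 0.11 ± 0.07, neither of them called. Of 5 genes that handle IgG without an ITAM 0 were called at an unadjusted p under 0.01 in limma, and 1 had a p under 0.05.

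**Figure D5:**
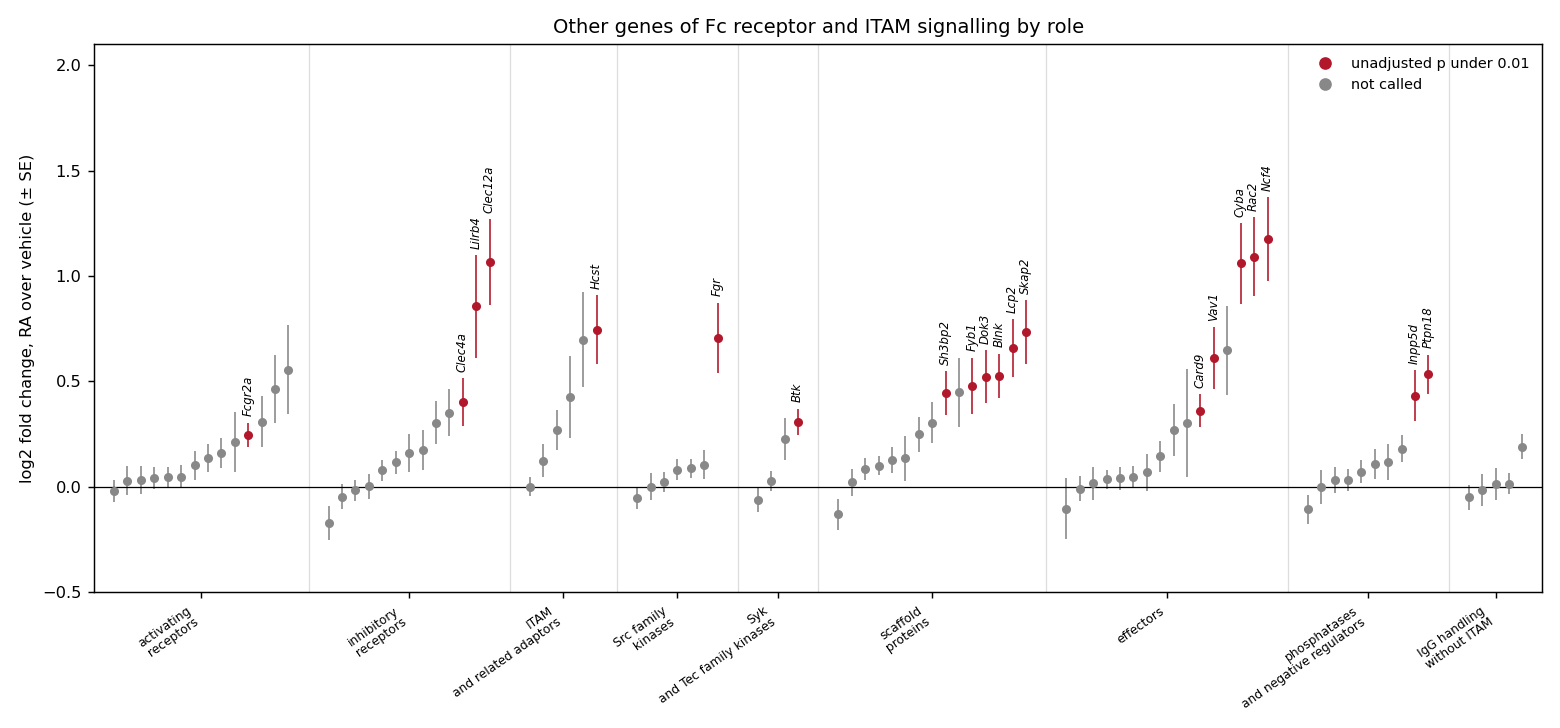
Log2 fold change of RA over vehicle with its SE (vertical axis) for the measured genes of the wider list, apart from those not reported here, grouped by role and ordered within each role. Red points, with gene names, had an unadjusted p under 0.01 in limma, and grey points did not. *Ncf4*, *Rac2*, *Clec12a* and *Cyba* lie above 1.0, and the genes that handle IgG without an ITAM lie between -0.05 and 0.19.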

How the data were processed

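RNA from hypothalamic blocks of rats given RA or vehicle was hybridised to 8 two-colour Agilent arrays, 4 in each dye order. The authors deposited scanner files with Cy3 and Cy5 intensity per spot, Agilent's log10 ratio of Cy5 over Cy3, and a table of normalised log2 ratios. The scanner files were used, and per the file headers other columns hold quality marks (scored 0 or 1) for signal well above background, saturation and outliers. The study's methods name R, limma, loess, a mean over identical probes and a block for dye-swaps.

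R 4.3.3 with limma 3.58.1 was used here. Background was corrected by normexp (offset 50), outlier spots were left out, loess was applied within arrays and spots of a probe were averaged. Channel levels were scaled between arrays by average intensity quantiles (Aquantile). A probe was taken as well above background on an array if a share of 0.5 or more of its spots carried that mark, and the brightest probe stood for its gene. Gene names came from transcript accessions matched to RefSeq (GRCr8) for 17998 of 30367 probes, and that table gave gene names and gene order only. The upstream stretches and their coordinates came from a separate RefSeq promoter table (GRCr8). Probe sequences were not used here, so probe specificity was not tested.

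Probes were tested with limma on means of 4 couples of arrays, 1 of each dye order, in all 24 possible pairings, and the largest p was kept. Benjamini-Hochberg adjustment covered all probes. The call threshold was an unadjusted p of 0.01. The 10 genes and the gene lists were chosen with earlier results of these data known, and the 10 genes were not tested. In the wider list, the text names in each role up to 3 called genes with the largest fold change and up to 2 of the brightest others, apart from items that are not reported here though they stay in the counts, and then the 5 genes closest to the median profile of the 10. The test was checked on simulated data. Alternatives were other background corrections, Agilent's ratio, the deposited values, scaling between arrays and the mean over all probes of a gene. Further alternatives were other models of the arrays, each dye order or slide row alone, and each of 16 couples of arrays left out.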

Additional observations from a re-analysis of the deposited data

How the results depend on the processing

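The median log2 ratio of the 10 genes ran from 0.54 with the first slide row alone to 1.47 with the second. No gene changed sign under any of the 28 alternatives run for it. For the 8 genes above 0 on all 8 arrays, leaving out arrays could not change the sign, so nothing is read from this. The mean of *Trem2* ran from -0.58 to -0.02. Agilent's log ratio gave 0.56 for *Syk* and 0.51 for *Plcg2*, and plain subtraction 0.57 and 0.52. Counts of calls depended on the fit, and the cause was not tested. Instead of 988 probes, 244 were called with plain subtraction, 330 with Agilent's log ratio, 1774 with random blocks, 2481 with independent arrays, 3142 in the pairing with the most calls, 2161 with RA in Cy5 only, 2317 with RA in Cy3 only, 2290 with the second slide row only and 3111 with slide row as a block. Instead of 21 genes of the wider list called higher, there were 10 with plain subtraction, 5 with Agilent's log ratio, 32 with random blocks, 34 with independent arrays, 39 in the pairing with the most calls and also with slide row as a block, 12 with the first row and 41 with the second. Instead of 0 genes called lower, there was 1 with each dye order alone. Leaving out 1 array of each dye order gave 455 to 1111 probes, 11 to 30 genes higher and 0 to 1 lower. Over the 24 pairings 0 to 2048 probes, and 0 to 37 genes of the wider list, passed an adjusted p of 0.05. The dye orders share no replicate numbers, so no fit used the number as a block, while each array itself sets RA against vehicle. The number of arrays limits the precision, and the rats behind each array are not named.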

Other observations

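Genes of ITAM signalling in lymphocytes, chosen for this paragraph after values were seen, differed among themselves. Of the chains of the T cell receptor complex, *Cd3g* had a mean log2 ratio of 0.11 in the first slide row and 1.28 in the second, *Cd247* -0.05 and 0.90, *Cd3d* 0.05 and 0.49, and *Cd3e* 0.03 and 0.21. *Zap70*, the counterpart of *Syk* in T cells, had 0.03 and 0.42, whereas *Lck*, the Src family kinase of T cells, had 0.12 and 0.06. None of these was called at an unadjusted p under 0.01 in limma. Signal was well above background on all 8 arrays in both channels for *Cd3d* and *Zap70*, but for *Cd3e* on 2 arrays in RA and 0 in vehicle. For *Cd3g* it was so on 6 arrays in RA and 2 in vehicle, and for *Cd247* on 6 and 3. For *Lck* it was so on 5 arrays in each channel. The ratios of these genes therefore rest in part on signal near background. The B cell adaptor *Cd79b* and the mast cell receptor chains *Fcer1a* and *Ms4a2* were not well above background on any array.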
